A study of Mus musculus with 13 samples.

Results

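The mast cell genes described here are 9 of the 15437 genes measured on arrays of mouse sciatic nerve, taken by symbol: Cpa3, Mcpt4, Cma1, Tpsb2, Kit, Ms4a2, Fcer1a, Mrgprb1 and Hdc. All 9 were measured, each by 1 probe set, and no member was removed by a filter. The nerves came from BKS mice 24 weeks old. One group was db/db, homozygous for a mutation of the leptin receptor gene that makes mice obese and diabetic (6 arrays, samples 110, 111, 112, 409, 410 and 411). The other was db/+, heterozygous for the same mutation and used as the nondiabetic control (7 arrays, samples 101, 103, 104, 105, 106, 404 and 407). Both genotypes carry at least 1 db allele, so neither is wild type. The comparison asked which transcripts differ between the nerves of the 2 genotypes in this model of diabetic neuropathy. Values are log2 levels, so a difference of 1 is a doubling. Genotype was tested with limma over all 15437 genes, and a gene passed where its Benjamini-Hochberg adjusted p was under 0.05.

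Mast cells are resident immune cells of connective tissue and lie in the sheaths of peripheral nerve. Their granules hold proteases, histamine and the proteoglycan that binds both, and they empty these when IgE on the high-affinity receptor meets antigen or when peptides meet receptors of the Mrgpr family. Their growth and survival depend on stem cell factor acting through the receptor tyrosine kinase Kit, and the transcription factor Gata2 takes part in switching on their genes.

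Array medians lay within 8.63 and 8.71. Correlations between arrays across genes were 0.894 to 0.989, and 0 pairs of arrays were identical. Whether every sample was its own animal is not stated, so p-values measure the spread among samples, which may be technical. The numbers form a lower series (101 to 112, with 3 db/db and 5 db/+ arrays) and a higher series (404 to 411, with 3 db/db and 2 db/+ arrays), and what they mark is not stated. Samples db/+ 101, 103, 104 and 106 stood apart from every other array in 14 neuronal markers, whose mean level was 11.45 to 12.21 on these 4 arrays. It was 6.84 to 7.49 on db/db arrays and 7.62 to 8.60 on db/+ 105, 404 and 407. Because of this, results on the members are given with and without those 4 arrays, and so are the counts of the lists that follow them. They were set apart for neuronal genes, not for mast cell genes. The probe sets carry no detection call, so no marker can be called absent.

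Of the members, 8 have a promoter entry in RefSeq's table for build GRCm38.p6, and the 250 bases before the start of each were searched for the core of a Gata factor's site, AGATAA or TGATAA on either strand. The search was made because several of these genes moved together across arrays, as described further on, and because Gata2 was itself lower in db/db nerve. With genotype means removed, Gata2 correlated with the mean of Cpa3, Mcpt4, Cma1 and Tpsb2 at 0.68 over all 13 arrays. The correlation was 0.84 within db/+ arrays and 0.17 within db/db arrays. Whether Gata2 has a part in the levels of these genes was not tested. Of 8 promoters, 4 held a match and 4 did not, against 10.8% of 14979 promoters of genes on the arrays. Among all 32851 promoters in the table the share was 16.6%. The 4 with a match belong to Cpa3, Mcpt4, Ms4a2 and Fcer1a, and are shown 5′ to 3′ with the matching letters in capitals.

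Cpa3, chr3:20242182-20242431, minus strand: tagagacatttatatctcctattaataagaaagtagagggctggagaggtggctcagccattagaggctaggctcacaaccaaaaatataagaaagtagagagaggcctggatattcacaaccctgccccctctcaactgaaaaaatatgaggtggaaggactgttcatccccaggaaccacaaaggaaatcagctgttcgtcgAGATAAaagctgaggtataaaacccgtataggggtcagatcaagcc

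Mcpt4, chr14:56062311-56062560, minus strand: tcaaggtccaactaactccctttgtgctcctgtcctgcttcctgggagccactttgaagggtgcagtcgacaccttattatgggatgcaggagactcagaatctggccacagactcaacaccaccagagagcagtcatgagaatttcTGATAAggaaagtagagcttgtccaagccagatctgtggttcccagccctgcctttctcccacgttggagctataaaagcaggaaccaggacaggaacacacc

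Ms4a2, chr19:11623720-11623969, minus strand: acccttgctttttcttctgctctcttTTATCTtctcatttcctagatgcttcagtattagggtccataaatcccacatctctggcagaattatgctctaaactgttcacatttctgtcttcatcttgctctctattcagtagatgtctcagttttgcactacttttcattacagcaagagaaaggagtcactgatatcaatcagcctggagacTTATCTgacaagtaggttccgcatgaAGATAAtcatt

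Fcer1a, chr1:173227230-173227479, minus strand: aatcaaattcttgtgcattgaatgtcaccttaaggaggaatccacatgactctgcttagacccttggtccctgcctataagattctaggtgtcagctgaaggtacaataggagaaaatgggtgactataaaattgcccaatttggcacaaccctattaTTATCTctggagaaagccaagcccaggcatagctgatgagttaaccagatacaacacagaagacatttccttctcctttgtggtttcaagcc

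The match lies 46 bases before the start in Cpa3, 103 in Mcpt4 and 92 in Fcer1a. Ms4a2 has 3, at 224, 37 and 11 bases. An E-box of the kind the factor Mitf binds, CATGTG or CACGTG on either strand, was present in 1 of the 8 promoters, that of Fcer1a, against 17.6% of all 32851 promoters in the table. The promoters of Cma1, Kit, Mrgprb1 and Hdc hold neither set of letters in this window. Kit has 2 promoter entries in the table and only the first was searched, whereas the shares count every entry. With genotype means removed, over 13 arrays, Cpa3 and Fcer1a, both with a match, correlated at 0.87. Cma1, without a match, correlated with Mcpt4 at 0.98. Pairs with Ms4a2, which has 3 matches, had a median of 0.13. These are examples only, and pairs with and without a match were not compared as sets. The probe sets of Mcpt4 and Cma1 may share signal, and Ms4a2 was dim, so these values do not bear on the matches. A match is a description of the sequence and was not tested for binding or for a link to the levels.

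Mast cell transcripts were mostly lower in db/db than in db/+ nerve, and for 2 of the 9 the difference passed the test. These were Cpa3, the carboxypeptidase of mast cell granules, and Kit. Both fell, Cpa3 to 0.634 and Kit to 0.745 of the level in db/+ nerve. No member rose. The mean was lower in db/db nerve for 8 of 9 members, with Hdc, the enzyme that makes histamine, as the exception. Over all genes, 11.7% passed as lower in db/db nerve, 13.4% as higher and 25.1% in either direction, and 48.0% had a lower mean. The 2 members that passed are thus close to the share among all genes in either direction. Without db/+ 101, 103, 104 and 106 the mean was lower for all 9 members, against 56.0% of all genes. The median log2 difference was -0.42 over the 9 members and 0.02 over all genes. In whole nerve, a change in mast cell number, in RNA per mast cell or in the share of other tissue cannot be told apart. None of these was tested, nor was the part of RNA quality.

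**Figure D1:**
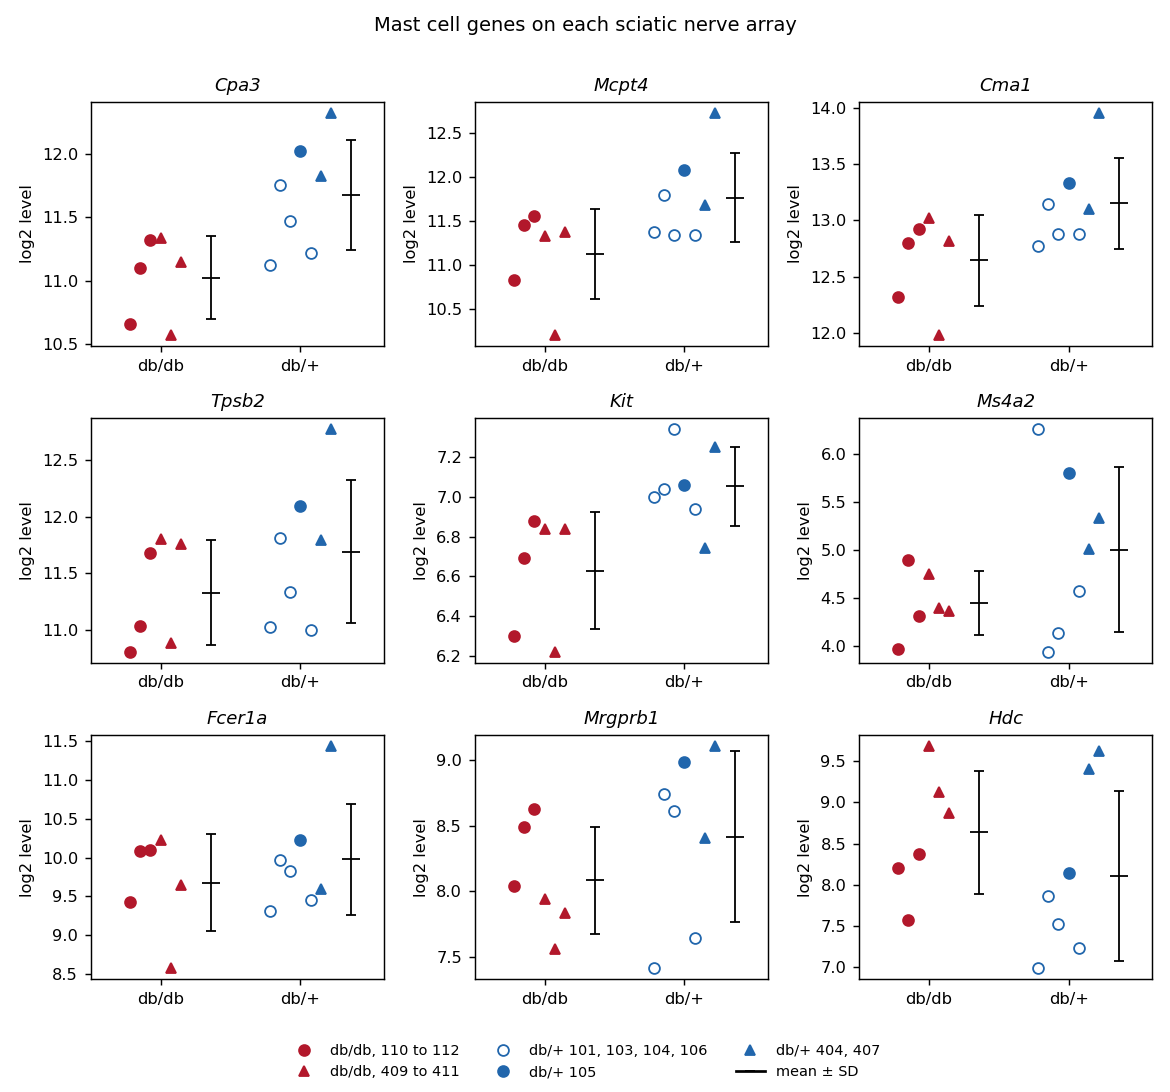
Log2 level of each mast cell gene on each array, with db/db left of db/+. Circles are arrays 101 to 112 and triangles arrays 404 to 411, open circles are db/+ 101, 103, 104 and 106, and the bar beside each group is the mean ± SD. The groups overlap in all 9 genes. Hdc differs most between circles and triangles within each genotype.

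Of the members, 4 are granule proteases, stored with heparin and released together. Cpa3 was between 10.57 and 11.34 on the 6 db/db arrays, with a median of 11.12. On db/+ arrays 101, 103, 104 and 106 it was 11.12, 11.76, 11.47 and 11.22, and on db/+ 105, 404 and 407 it was 12.03, 11.83 and 12.33. The db/db arrays lay below all 3 of these last arrays, but db/+ 101 and 106 lay within the db/db range. Means were 11.02 ± 0.33 in db/db nerve (SD, n = 6) and 11.68 ± 0.44 in db/+ nerve (SD, n = 7). The log2 difference in limma was -0.66 (SE 0.21, adjusted p = 0.0345). Without the 4 arrays it was -1.04 (SE 0.20, adjusted p = 0.0107). The call on all arrays did not survive leaving out any one of 7 arrays, db/db 110, 111, 410 and 411 and db/+ 103, 105 and 404, with adjusted p between 0.0512 and 0.0758.

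Mcpt4, the chymase of connective tissue mast cells, was between 10.20 and 11.55 on db/db arrays, with a median of 11.35. It was 11.37, 11.79, 11.34 and 11.34 on db/+ 101, 103, 104 and 106, and 12.08, 11.68 and 12.73 on db/+ 105, 404 and 407. Arrays db/+ 101, 104 and 106 lay within the db/db range and the other 4 db/+ arrays above it, with db/db 410 the lowest array and db/+ 407 the highest. The log2 difference of -0.64 did not pass (SE 0.27, adjusted p = 0.0930), nor did the -1.04 found without the 4 arrays (SE 0.32, adjusted p = 0.0652).

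Cma1, another mast cell chymase, had the same outline. Its levels ran from 11.98 to 13.02 in db/db nerve, with a median of 12.81. They were 12.77, 13.15, 12.88 and 12.88 on db/+ 101, 103, 104 and 106, and 13.33, 13.10 and 13.96 on db/+ 105, 404 and 407. Again db/db 410 was lowest and db/+ 407 highest. The difference was -0.51 (SE 0.21, adjusted p = 0.0957), and -0.82 without the 4 arrays (SE 0.27, adjusted p = 0.0753). Mcpt4 and Cma1 belong to a family of closely related chymase genes, so their probe sets may share signal with each other or with relatives.

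Tpsb2, a tryptase, ran from 10.81 to 11.80 in db/db nerve, with a median of 11.36. It was 11.03, 11.81, 11.34 and 11.00 on db/+ 101, 103, 104 and 106, within or at the edge of the db/db values. On db/+ 105, 404 and 407 it was 12.09, 11.79 and 12.77, so that db/+ 404 also lay among the db/db arrays. The difference was -0.36 (SE 0.29, adjusted p = 0.388) on all arrays and -0.89 (SE 0.30, adjusted p = 0.0834) without the 4. By two-sided exact permutation of the 13 arrays, 1 gene at a time and without adjustment, p was 0.0152 for Cpa3, 0.0332 for Mcpt4, 0.0350 for Cma1 and 0.279 for Tpsb2. The smallest p this design allows is 0.000583.

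The mean of the 4 proteases summarises this. It was 11.15, 11.60, 11.87, 11.87, 10.91 and 11.77 on db/db 110, 111, 112, 409, 410 and 411. It was 11.57, 12.12, 11.76 and 11.61 on db/+ 101, 103, 104 and 106, and 12.38, 12.10 and 12.95 on db/+ 105, 404 and 407. The 3 last arrays exceeded every db/db array, whereas of the 4 only db/+ 103 did. Over all 13 arrays 0 of the 9 members separated the genotypes completely, and 3.51% of all genes did so with db/db lower. Without the 4 arrays, Cpa3, Mcpt4, Cma1 and Ms4a2 did so, 4 of 9 members against 9.99% of all genes.

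Kit, the receptor for stem cell factor, is also made by melanocytes, interstitial cells and some neurons. It was between 6.22 and 6.88 in db/db nerve, with a median of 6.77. On db/+ 101, 103, 104 and 106 it was 7.0, 7.04, 7.34 and 6.94, and on db/+ 105, 404 and 407 it was 7.06, 6.74 and 7.25. All db/+ arrays but 404 lay above every db/db array. Unlike the proteases, Kit was no lower on the 4 arrays (mean 7.08 ± 0.18, SD, n = 4) than on the other 3 db/+ arrays (7.02 ± 0.26, SD, n = 3). The difference was -0.42 (SE 0.14, adjusted p = 0.0378, exact permutation p = 0.00641). It was nearly as large without the 4 arrays, at -0.39, where it did not pass (SE 0.19, adjusted p = 0.216). The call was lost on leaving out any one of 9 arrays (adjusted p 0.0521 to 0.0820), all except db/db 112, 409 and 411 and db/+ 404. It was also lost with an intensity trend (adjusted p = 0.0545), with trend and robust moderation (adjusted p = 0.0535), after median centring (-0.38, adjusted p = 0.0595) and after renewed quantile normalization (-0.31, adjusted p = 0.118).

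Fcer1a and Ms4a2 encode the IgE-binding alpha chain and the signal-amplifying beta chain of the high-affinity IgE receptor. Fcer1a ran from 8.57 to 10.23 in db/db nerve, with a median of 9.87. It was 9.31, 9.97, 9.83 and 9.45 on db/+ 101, 103, 104 and 106, and 10.23, 9.60 and 11.44 on db/+ 105, 404 and 407. Its groups overlapped almost entirely apart from db/db 410 and db/+ 407. The difference was -0.30 (SE 0.35, adjusted p = 0.558), and -0.75 without the 4 arrays (SE 0.45, adjusted p = 0.316).

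Ms4a2 was dim, its lowest value lying above only 3.37% of all values in the table. It ran from 3.97 to 4.90 in db/db nerve, with a median of 4.38. On db/+ 101, 103, 104 and 106 it was 6.26, 3.94, 4.13 and 4.57, with an SD of 1.06 (n = 4). On db/+ 105, 404 and 407 it was 5.80, 5.01 and 5.33, each above all db/db arrays. The difference did not pass on all arrays (-0.56, SE 0.35, adjusted p = 0.256). It passed without the 4 (-0.93, SE 0.23, adjusted p = 0.0271), where 12.9% of all genes passed in either direction and 6.78% as lower in db/db nerve. In that fit Cpa3 and Ms4a2 were the 2 members that passed.

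Mrgprb1 encodes a receptor of the Mrgpr family, whose relative Mrgprb2 lets peptides and basic drugs trigger mouse mast cells. It ran from 7.56 to 8.63 in db/db nerve, with a median of 7.99. It was 7.41, 8.74, 8.61 and 7.64 on db/+ 101, 103, 104 and 106, and 8.99, 8.41 and 9.11 on db/+ 105, 404 and 407. The genotype difference was -0.33 (SE 0.29, adjusted p = 0.418), and -0.75 without the 4 arrays (SE 0.25, adjusted p = 0.0828). Without the 4 and with the number series in the fit it was -0.83 and passed (SE 0.20, adjusted p = 0.0228). In that fit Cpa3, Ms4a2 and Mrgprb1 passed, 3 of 9 members, and 10.4% of all genes passed as lower.

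Hdc, histidine decarboxylase, is not confined to mast cells and is also made by basophils, other myeloid cells and some neurons. It was 8.20, 7.58 and 8.37 on db/db 110, 111 and 112, and 9.68, 9.12 and 8.87 on db/db 409, 410 and 411. In db/+ nerve it was 6.99, 7.86, 7.53, 8.14 and 7.24 on arrays 101, 103, 104, 105 and 106, and 9.40 and 9.62 on arrays 404 and 407. Every array of the higher number series, of either genotype, exceeded every array of the lower one. With genotype in the fit, the higher series exceeded the lower by 1.56 (SE 0.24, adjusted p = 0.00245), a test chosen after these levels were seen. Of all genes, 17.0% differed between the series in either direction, 10.5% with the higher series higher, and Hdc was the 1 member that did. The genotype difference of Hdc was 0.53 (SE 0.47, adjusted p = 0.432) on all arrays and 0.19 (SE 0.24, adjusted p = 0.578) with the series in the fit. It was -0.42 (SE 0.47, adjusted p = 0.612) without the 4 arrays, so its sign depended on them.

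All 9 members were also read within each number series. Within arrays 101 to 112, where the 4 arrays are 4 of the 5 db/+ samples, 0 of 9 members passed, with a median log2 difference of -0.31 and 1 at an unadjusted p under 0.05 (limma). There 18.5% of all genes passed in either direction and 8.67% as lower in db/db nerve. In arrays 404 to 411, with 3 db/db and 2 db/+ arrays, 0 of 9 passed as well, where 9.1% of all genes passed in either direction and 4.17% as lower. All 9 means were lower in db/db nerve there, the median was -0.92 and 4 had an unadjusted p under 0.05 (limma). The share of all genes at an unadjusted p, or with a lower mean, was not counted in either series, so these member counts have no background. A genotype effect that differed between the series was not shown for any member (lowest adjusted p = 0.375, 0 members at an unadjusted p under 0.05). Over all genes it was shown for 0 (0.0%) after adjustment, with 2360 at an unadjusted p under 0.05 (limma). With the series as a block, Cpa3 (-0.71, adjusted p = 0.0231) and Kit (-0.42, adjusted p = 0.0471) again passed, with 12.9% of all genes passing as lower.

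**Figure D2:**
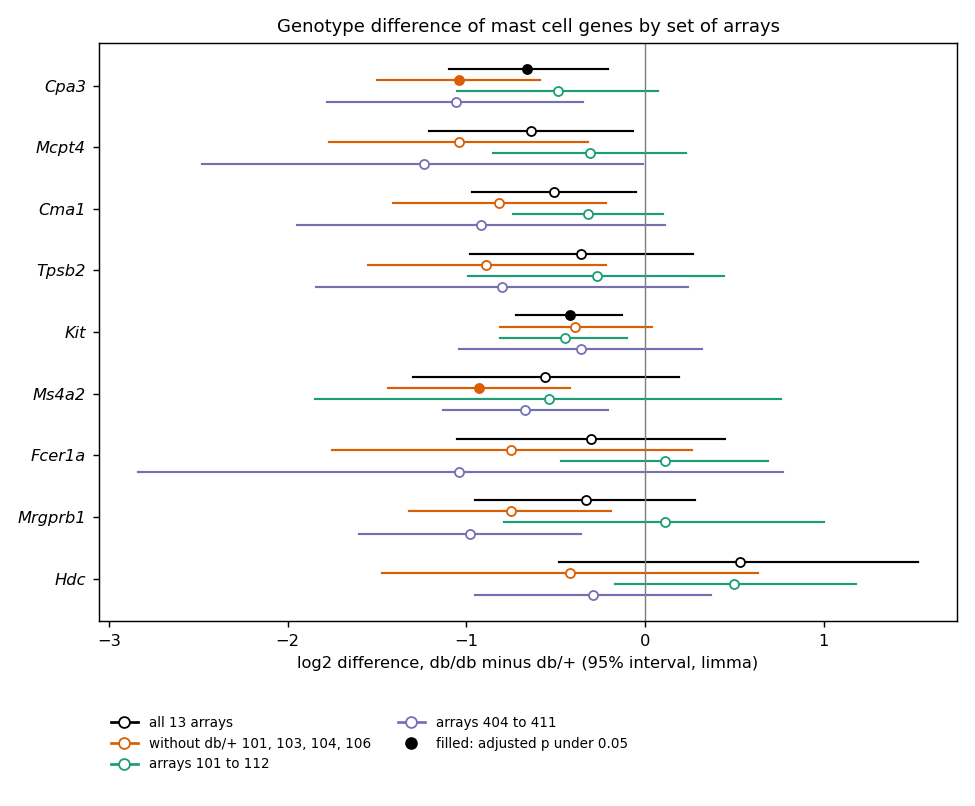
Log2 difference, db/db minus db/+, of each mast cell gene with its 95% interval from limma, by the set of arrays fitted; filled points passed at an adjusted p under 0.05. On all 13 arrays Cpa3 and Kit are filled, and in arrays 404 to 411 all 9 points lie below 0.

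The members differed in how they varied among arrays of 1 genotype. After each genotype's mean was removed, the 6 pairs of the 4 proteases had Pearson correlations of 0.85 to 0.98 over 13 arrays, with a median of 0.92. Within the 6 db/db arrays alone the median was 0.90. Across all 36 pairs of members the range was -0.15 to 0.98 with a median of 0.64. Pairs with Ms4a2 had a median of 0.13 and pairs with Hdc 0.38, and within db/db arrays pairs with Hdc had a median of 0.01. Kit correlated with the other 8 members at a median of 0.54 over 13 arrays and 0.88 over the 9 arrays without db/+ 101, 103, 104 and 106. Within db/db arrays alone the median for Kit was also 0.88. These are descriptions. The points share their arrays, and the genes of 1 cell type share that cell type's amount in the nerve piece.

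**Figure D3:**
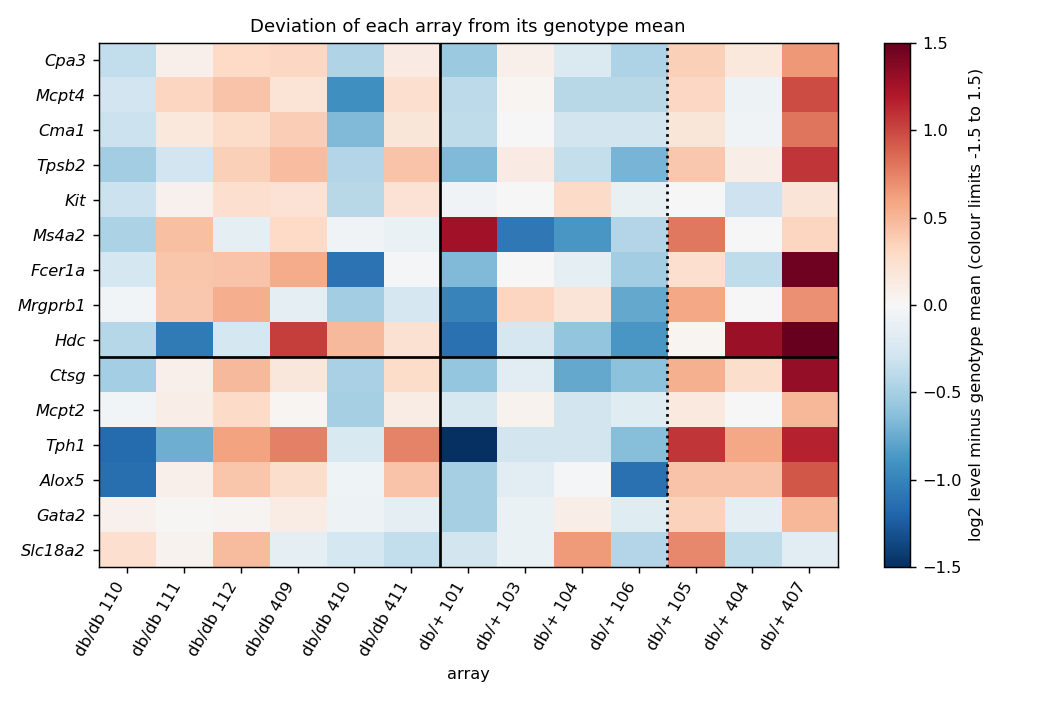
Deviation of the log2 level from the genotype mean for the 9 members (above the line) and 6 other genes of mast cell biology (below it), with db/db arrays on the left, then db/+ 101, 103, 104 and 106, then db/+ 105, 404 and 407. Cpa3, Mcpt4, Cma1, Tpsb2 and Fcer1a share a pattern in which db/db 410 and db/db 110 are low and db/+ 407 is high, and Hdc follows the number series.

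The range within a genotype was wide. The SD of the 9 members ran from 0.29 to 0.74 in db/db nerve and from 0.20 to 1.03 in db/+ nerve, against medians over all genes of 0.22 and 0.29. The 4 proteases had SDs of 0.33 to 0.51 in db/db nerve and 0.40 to 0.63 in db/+ nerve. Array db/db 410 was the lowest of all 13 for Cpa3, Mcpt4, Cma1, Kit and Fcer1a. Array db/+ 407 was the highest for the 4 proteases, Fcer1a and Mrgprb1.

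All 15433 other genes were then ranked by the correlation of their centred level with the mean of the 4 proteases over the 13 arrays. The median of that correlation was 0.11, the 95th percentile 0.63 and the 99th 0.75. The 8 most alike were Ctsg (0.94), F13a1 (0.93), Mcpt2 (0.93), Fcer1a (0.92), Emx2 (0.92), 1 probe set without a symbol (0.91), Cbr2 (0.90) and 2310061N02Rik (0.90). Ctsg is a granule protease, cathepsin G, Mcpt2 another chymase, and F13a1 the A subunit of coagulation factor XIII, made by tissue macrophages. Of the other members, Mrgprb1 ranked 171 (0.74), Kit 975 (0.61), Hdc 1274 (0.58) and Ms4a2 6744 (0.18). Without the 4 arrays, Kit ranked 1 (0.98 over 9 arrays) and Hdc 4480 (0.15). By genotype, the correlation of Kit was 0.99 within db/db arrays and 0.27 within all db/+ arrays. The lists of 8 from the 13 and from the 9 arrays shared 2 genes, Ctsg and Fcer1a.

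**Figure D4:**
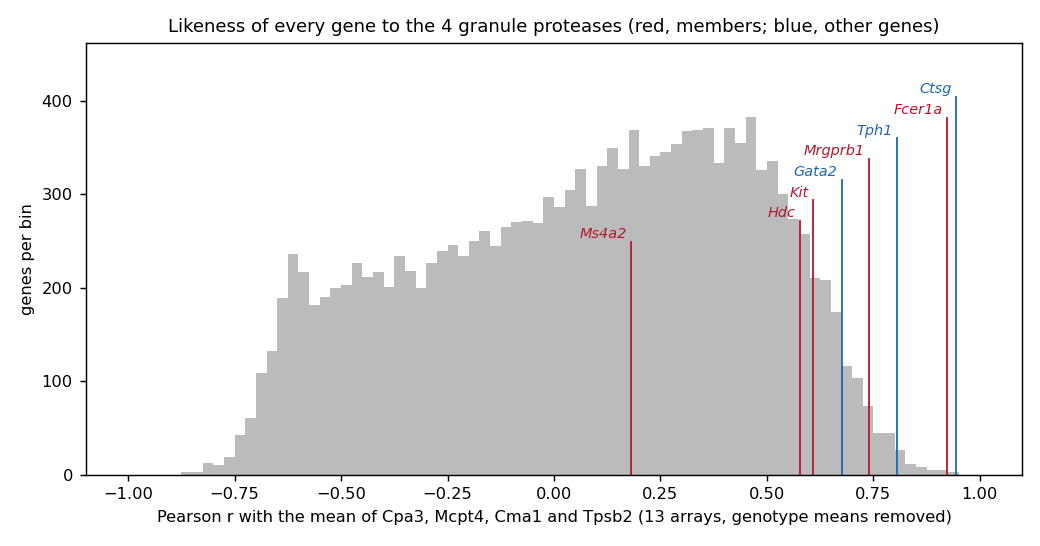
Number of genes by Pearson correlation of their centred log2 level with the mean of Cpa3, Mcpt4, Cma1 and Tpsb2 over 13 arrays; lines mark members (red) and other mast cell genes (blue). Ctsg (0.94) and Fcer1a (0.92) stand at the right end, Kit (0.61) and Hdc (0.58) lower, and Ms4a2 (0.18) near the median of 0.11.

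Other genes of mast cell biology were read from lists, many of whose genes are also active in other cells. The counts of every list are to be read beside the shares among all genes. On all arrays 11.7% of all genes passed as lower, 13.4% as higher and 25.1% in either direction. Without the 4 arrays 6.78% passed as lower and 12.9% in either direction. Of 7 further granule genes measured, 0 passed, with a median difference of -0.01 (limma). The one with the smallest p was Ctsg, with 9.40 ± 0.41 in db/db nerve (SD, n = 6) and 10.26 ± 0.76 in db/+ nerve (SD, n = 7), a difference of -0.85 (adjusted p = 0.0678). Without the 4 arrays it fell by 1.56 (adjusted p = 0.00841), and 2 of the 7 passed as lower. With the number series as a block Ctsg passed too, 1 of the 7 (-0.97, adjusted p = 0.0369). Of 15 genes of Kit signalling and mast cell growth, 1 fell and 1 rose, and without the 4 arrays 4 fell and 0 rose. Gata2 fell, with 9.59 ± 0.10 in db/db nerve (SD, n = 6) and 10.05 ± 0.34 in db/+ nerve (SD, n = 7), a difference of -0.46 (SE 0.14, adjusted p = 0.0320) and of -0.69 without the 4 arrays (adjusted p = 0.0137). Csf2rb, the shared beta chain of the Il3, Il5 and Gm-csf receptors, rose by 1.0 (adjusted p = 0.0121), a call lost without the 4 arrays (0.62, adjusted p = 0.142).

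Of 10 genes for histamine and serotonin handling, 1 fell, and 2 fell without the 4 arrays. On all arrays this was Slc18a2, the vesicular monoamine transporter that loads histamine into granules, with a difference of -0.73 (adjusted p = 0.0275) on all arrays and -0.79 (adjusted p = 0.0808) without the 4. With genotype means removed, Slc18a2 correlated with the mean of the 4 proteases at only 0.14 over 13 arrays. Of 8 Mrgpr family and ligand genes, 0 passed (limma), and 1 fell without the 4 arrays. Adcyap1, the neuropeptide PACAP, came nearest (-3.39, adjusted p = 0.0502), and its difference was -0.10 without the 4 arrays (adjusted p = 0.823).

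Among 12 genes of the secretion machinery, 4 fell and 1 rose. Cplx2, a complexin, fell by 1.36 (adjusted p = 0.00500). Rab27b, a small GTPase of granule docking, fell by 1.35 (adjusted p = 0.0170), and the vesicle protein Vamp2 fell by 0.44 (adjusted p = 0.0280). Stxbp2, the syntaxin-binding protein Munc18-2, rose by 0.75 (adjusted p = 0.00810). Neurons use the same or closely related proteins to release transmitter. Without the 4 arrays high in neuronal markers, 0 of the 12 passed in limma. There Cplx2 was at -0.69 (adjusted p = 0.0501), Rab27b at -0.47 (adjusted p = 0.144), Vamp2 at -0.24 (adjusted p = 0.320) and Stxbp2 at 0.43 (adjusted p = 0.132). That fit holds fewer db/+ arrays, and the part of neurons in these differences was not tested.

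Among 18 genes of IgE receptor signalling, 5 rose and 1 fell, where 25.1% of all genes passed in either direction. The kinase Fyn was 10.83 ± 0.14 in db/db nerve (SD, n = 6) and 11.51 ± 0.14 in db/+ nerve (SD, n = 7) and fell by 0.69 (adjusted p = 0.000215), also without the 4 arrays (-0.78, adjusted p = 0.00381). The adaptor Lat2 (1.66, adjusted p = 0.00269), the inhibitory receptor Cd300a (1.40, adjusted p = 0.00582) and the calcium sensor Stim1 (0.58, adjusted p = 0.00714) rose, and 0 of the list's genes passed as higher without the 4 arrays. Lat2 and Cd300a are also made by other myeloid cells. Of 12 macrophage markers, 3 passed as higher and 0 as lower, with a median of 0.19, and 0 passed without the 4 arrays, with a median of -0.06.

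Of 14 prostaglandin and leukotriene genes, 4 rose and 1 fell, and without the 4 arrays 1 rose and 2 fell. Of all genes, 25.1% passed in either direction on all arrays and 12.9% without the 4. Lta4h (0.45, adjusted p = 0.00499) and Ltc4s (1.42, adjusted p = 0.0104), enzymes of leukotriene synthesis, and Ptger3, a prostaglandin E2 receptor (1.05, adjusted p = 0.00605), rose. Ptgs2, the inducible cyclooxygenase, fell by 0.89 (adjusted p = 0.0150). Of 16 cytokine and receptor genes, 4 rose and 3 fell, and without the 4 arrays 1 rose and 2 fell. Il7r rose by 3.46 (adjusted p = 2.5e-05) and the chemokine Ccl2 by 1.81 (adjusted p = 0.00247), whereas Ccl1 fell by 0.53 (adjusted p = 0.0166) and Tslp by 0.84 (adjusted p = 0.0181). Without the 4 arrays Ptger3 (0.77, adjusted p = 0.00958), Ptgs2 (-1.09, adjusted p = 0.00344), Il7r (2.96, adjusted p = 0.00284) and Tslp (-1.25, adjusted p = 0.00747) still passed. Lta4h (0.39, adjusted p = 0.0890), Ltc4s (1.01, adjusted p = 0.117), Ccl2 (1.47, adjusted p = 0.0547) and Ccl1 (-0.42, adjusted p = 0.182) did not.

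Markers of other cells of the nerve also moved with genotype. For comparison, 11.7% of all genes passed as lower and 13.4% as higher on all arrays. Without the 4 arrays 6.78% passed as lower and 12.9% in either direction. Of 9 fibroblast and epineurial markers, 4 fell and 0 rose, on all arrays and again without the 4. Their mean level was 11.42 to 11.98 on db/db arrays and 11.94 to 12.50 on db/+ arrays. On db/+ 101, 103, 104 and 106 it was 11.94 to 12.11 and on the other 3 db/+ arrays 12.36 to 12.50, so these markers ordered the sets of arrays as the proteases did. The one with the smallest p, Sfrp2, fell by 0.98 (adjusted p = 0.000786), and fell by 1.12 without the 4 arrays (adjusted p = 0.00618). Of 10 adipocyte markers, 7 rose and 0 fell, and 3 rose without the 4 arrays, where the median was 0.44 against 0.69 on all arrays. They had a mean level of 13.14 to 13.29 on db/db arrays and 12.06 to 13.02 on db/+ arrays, and Lep rose by 1.75 (adjusted p = 0.000360), and by 1.54 without the 4 arrays (adjusted p = 0.00170). Their part in the mast cell differences was not tested.

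Basophils and eosinophils share genes with mast cells. Of 8 of their markers, 2 fell and 0 rose, and 4 fell without the 4 arrays. Their mean level was 4.95 to 5.25 on db/db arrays and 4.82 to 6.17 on db/+ arrays, near the bottom of the scale. Cd200r3, which mast cells also make, fell by 1.39 (adjusted p = 0.0171) on all arrays and fell by 1.98 without the 4 (adjusted p = 0.00710). Of 5 melanocyte markers, a possible source of Kit, 1 fell, Sox10 (-0.99, adjusted p = 0.0151), which Schwann cells also make. Sox10 lost its call without the 4 arrays (-0.74, adjusted p = 0.187), where 0 of the 5 passed. The mean level was 5.96 to 6.31 on db/db arrays and 6.10 to 6.47 on db/+ arrays.

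Of 14 neuronal markers, 12 fell with a median of -3.15, and Uchl1 fell by 2.21 (adjusted p = 0.000546). Without the 4 arrays 4 of the 14 passed as lower and the median was -0.95. Of 8 Schwann cell myelin markers, 5 fell, with Cldn19 at -1.43 (adjusted p = 0.00451), and 0 passed without the 4 arrays. The myelin mean level was 9.38 to 10.77 on db/db arrays and 10.32 to 11.48 on db/+ arrays, above the array median on every array. The macrophage mean level was 10.85 to 11.55 on db/db arrays and 10.61 to 11.73 on db/+ arrays, with Cd68 higher by 1.38 (adjusted p = 0.0101), or by 0.90 without the 4 arrays, where it did not pass (adjusted p = 0.169). Of 9 skeletal muscle markers 0 passed with or without the 4 arrays (limma, smallest p for Myh4, -1.35, adjusted p = 0.441), and their mean level ran from 6.48 to 11.88 on db/db arrays and from 6.61 to 11.65 on db/+ arrays. Of 8 lymphocyte markers 0 passed with or without them (limma, smallest p for Cd2, -0.44, adjusted p = 0.239), with a mean level of 6.55 to 7.30 on db/db arrays and 6.55 to 7.78 on db/+ arrays. As a measure of RNA quality, the actin control's 3′ minus 5′ level was 0.485 to 0.916 on db/db arrays. It was 0.963, 1.084, 1.395, 0.998, 1.196 and 1.144 on db/+ 101, 103, 104, 105, 106 and 404, each above every db/db array. On db/+ 407 it was 0.399. The same measure of the Gapdh control was 0.505 to 0.868 on db/db arrays and 0.55 to 1.338 on db/+ arrays. The part of these in the mast cell results was not tested.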

How the data were processed

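Per the labels' protocols, sciatic nerve RNA was amplified and biotin-labelled for 1-colour Affymetrix arrays. The authors deposited log2 levels made with RMA, per the submitters' processing notes. RMA equalises arrays, which hides differences in total signal and compresses folds of dim genes. The sources used here name neither the RMA version nor an array build, so the probe sets' coordinates are not printed, and those of promoters are from RefSeq's table on GRCm38.p6.

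Of 15479 probe sets, 42 controls were left out and 15437 were tested, 14801 of them with a symbol, of which 14776 were found in a RefSeq table. The genotype test was two-sided, from limma 3.58.1 (lmFit, eBayes; R 4.3.3), and p-values were adjusted by Benjamini-Hochberg over all 15437. The number of arrays limits the precision. The members and lists were chosen with earlier results of these data known.

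Named genes were the 9 members, the 4 smallest p among genes passing in each list of mast cell biology (or the 1 smallest where none passed), the 1 smallest p of each other cell type's list, and the 8 genes most like the 4 proteases. The lists were granule genes, secretion, IgE receptor signalling, Kit and growth, histamine and serotonin, prostaglandins and leukotrienes, cytokines, Mrgpr genes, and markers of basophils and eosinophils, melanocytes, neurons, adipocytes, macrophages, fibroblasts, myelin, muscle and lymphocytes. Alternatives were an intensity trend, robust moderation, renewed quantile normalization, median centring, array weights, a filter on dim genes, either number series alone or both as a block, an exact permutation test, leaving out db/+ 101, 103, 104 and 106, and leaving out each array. Other steps used scipy 1.17.1, numpy 2.4.6, pandas 2.3.3 and matplotlib 3.10.9 in Python 3.11.15.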

Additional observations from a re-analysis of the deposited data

How the results depend on the processing

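The count of members lower in db/db nerve was 2 in the report. It was 1 with an intensity trend, with trend and robust moderation, after renewed quantile normalization, after median centring, among genes with a mean level of 7 or more (which leaves out Kit), and with array weights, the member lost being Cpa3 with array weights and Kit in the others. It was 0 in arrays 101 to 112 alone and in arrays 404 to 411 alone. It was 4 by the exact permutation test at an unadjusted p under 0.05, for which the share of all genes was not counted. It was 0 to 2 on leaving out each array in turn. A block for the number series gave 2 again, and without db/+ 101, 103, 104 and 106 it was 2, or 3 with the block added. The count of members higher was 0 except with array weights, where it was 1, Hdc (1.12, adjusted p = 0.0309 in limma). In that fit Cpa3 was at -0.46 (adjusted p = 0.0546). The median over the 9 members stayed below 0 in all alternatives run, between -0.48 and -0.34 on leaving out each array. Genes passing over the whole table numbered 3867 in the report, 6525 with array weights, 1404 in arrays 404 to 411 alone and 1992 without the 4 db/+ arrays. Median centring moved the share of higher calls among all genes to 62.6%, against 53.5% in the report, and the median of all genes to 0.07, against 0.02.

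Signs turned in arrays 101 to 112 alone for Mrgprb1 (0.11), Fcer1a (0.11) and Mcpt2 (0.03), and in arrays 404 to 411 alone for Hdc (-0.29) and Adcyap1 (0.07). Without the 4 db/+ arrays Hdc turned (-0.42), and with the block added Hdc (-0.21) and Adcyap1 (0.00). Each of these missed the threshold before and after. Over 40 single genes, 990 alternative fits gave 874 of the same direction and call, 93 that lost the call, 15 that gained it and the 8 turned signs. The causes were not tested. No paired analysis was possible because the genotypes share no sample number. Levels of Ms4a2 near the bottom of the scale are limited by background. On all 13 arrays the 95% intervals of Tpsb2, Fcer1a, Mrgprb1, Ms4a2 and Hdc include 0. Without the 4 db/+ arrays those of Tpsb2 (-1.55 to -0.22), Mrgprb1 (-1.32 to -0.19) and Ms4a2 (-1.44 to -0.42) lie below 0. Those of Fcer1a, Hdc and Kit (-0.81 to 0.04) include 0 there.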
